A study of Mus musculus with 5 samples.

Results

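The interferon-stimulated genes described here are 43 genes of the type I and type II interferon programmes. They were measured in mouse bone marrow (BM) cells among 23234 gene symbols. The list was chosen by known function, with earlier results of these data known. All 43 symbols were found, in 10 functional classes. The data were 5 RNA-seq libraries, 1 per condition, from C57BL/6 mice 7 weeks old that carried the Ym1-Venus reporter allele (genotype +/Ym1Venus) in every group, untreated groups included. Ym1+Ly6Chi monocytes (Ly6C+CD115+Venus+) and Ym1-Ly6Chi monocytes (Ly6C+CD115+Venus-) were sorted from BM 48 h after an intravenous injection of 100 µg LPS, a bacterial cell wall component, per mouse, as were neutrophils. Naïve monocytes (Ly6C+CD115+Venus-) and naïve neutrophils came from mice without treatment. Venus reports expression of the Ym1 gene (Chi3l3), so the 2 monocyte libraries after LPS differ by the gate on that reporter. The sources used here do not say whether a library holds 1 mouse or pooled mice. Levels are FPKM, fragment numbers corrected for transcript length and sequencing depth, and a difference is that of log2(FPKM + 1), where a value of 1 is called 2-fold. This scale understates the change of genes with low FPKM. With 1 library per condition no test was possible, and each difference describes a pair of libraries, in which the condition and any other difference between them cannot be told apart.

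Interferons are cytokines that cells release on sensing microbial nucleic acids or cell wall components. Type I interferon binds the IFNAR receptor, and the kinases JAK1 and TYK2 then activate a complex with STAT2 and IRF9 that binds the interferon-stimulated response element (ISRE) in promoters. Type II interferon (IFN-γ) has a receptor of its own and acts through the gamma-activated sequence (GAS). The genes switched on encode proteins that destroy or bind viral RNA, block viral assembly, sense nucleic acids or attack vacuoles holding microbes, and a part of them is kept on at a low level in resting myeloid cells.

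The labelled cell types carried their markers. Ccr2, a monocyte chemokine receptor, was at 434 to 499 FPKM in the monocyte libraries and at most 1.13 in neutrophils, and the neutrophil granule gene Ngp was at 36159 to 38174 FPKM in neutrophils and 46.2 to 387 in monocytes. Chi3l3 was at 1759 FPKM in Ym1+ monocytes, 386 in Ym1- monocytes and 430.0 in naïve monocytes. It was also high in neutrophils, at 1484 FPKM naïve and 1712 after LPS. An FPKM of 10 for a transcript of 2 kb stood for an estimated 85.1 fragments in Ym1- monocytes, the shallowest library, and 190 fragments in Ym1+ monocytes, the deepest. Only 40.5 to 45.1% of the low values behind that estimate lay within 0.1 of a whole number of fragments, so the fragment numbers and the intervals built on them are approximate and cover counting error only. S100a8 and S100a9 took 27.7% and 30.0% of all FPKM in neutrophils after LPS and naïve neutrophils and at most 2.39% in monocytes, and a library's FPKM for all other genes falls as that share grows. Bulk libraries cannot tell fewer cells of a type from less RNA per cell.

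Interferon acts on these genes through short promoter motifs, and 6 promoters are shown for members to which the LPS comparisons return. They are the 4 members at least 2-fold lower in Ym1- monocytes after LPS (Ifit1, Ifit3, Isg15 and Rsad2), Oas1a, which was at least 2-fold higher in all 3 LPS comparisons, and Gbp2, which was higher in neutrophils and lower in monocytes, and they were chosen after their values were seen. The sequences are upstream bases only, from RefSeq on GRCm38.p6, which is not the mm9 build of the expression files. Each runs 5′ to 3′ on the strand of its gene, with matches on either strand to the ISRE letters, GAAA followed by any 2 bases and a second GAAA, in capitals. Touching capitals are overlapping matches.
Ifit1 (chr19:34640759-34640838, + strand, -130 to -51 from the start site): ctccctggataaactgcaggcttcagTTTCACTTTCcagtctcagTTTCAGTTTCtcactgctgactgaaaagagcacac
Ifit3 (chr19:34583355-34583434, + strand, -174 to -95): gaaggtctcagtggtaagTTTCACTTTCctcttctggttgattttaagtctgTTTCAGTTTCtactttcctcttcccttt
Isg15 (chr4:156200846-156200925, - strand, -107 to -28): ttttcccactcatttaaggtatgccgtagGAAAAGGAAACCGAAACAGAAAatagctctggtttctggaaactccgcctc
Rsad2 (chr12:26456528-26456607, - strand, -155 to -76): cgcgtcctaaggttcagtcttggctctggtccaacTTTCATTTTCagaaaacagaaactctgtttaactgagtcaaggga
Oas1a (chr5:120907526-120907605, - strand, -80 to -1): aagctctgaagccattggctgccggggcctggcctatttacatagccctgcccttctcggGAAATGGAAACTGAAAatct
Gbp2 (chr3:142620569-142620648, + strand, -94 to -15): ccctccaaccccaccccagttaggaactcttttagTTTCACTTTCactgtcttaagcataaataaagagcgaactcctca
Isg15 held 3 matches in this stretch, Ifit1, Ifit3 and Oas1a held 2 each, and Rsad2 and Gbp2 held 1. Of 43 members 32 had a promoter in the RefSeq table, taken from 250 bases before to 50 bases after the start site, and 17 of these (53.1%) held the ISRE letters, against 3.99% of 27025 genes. The GAS letters TTCNNNGAA, searched on both strands, were in 8 of these 32 members and 9.55% of all genes. In 4 members both motifs were found, and in 1 of these, Bst2, they overlapped. The promoter of Ifi47, the member with the highest LPS difference in neutrophils, did not hold the ISRE letters in this window. A match is a description of the letters and not of a bound site, and a missing match does not mean that a gene lacks an ISRE. The members with no promoter sequence here were Oas2, Usp18, Dhx58, Zbp1, Mx1, Mx2, Iigp1, Ifi204, Rtp4, Parp9 and Parp14.

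Interferon-stimulated genes were expressed in all 5 libraries before and after LPS. Of the 43 members 34 had at least 1 FPKM in every library and 27 had at least 5, and 2 were under 1 FPKM in all 5 (Iigp1, an immunity-related GTPase, at most 0.837, and Ifi44, a cytoplasmic antiviral protein, at most 0.790). The most abundant member in every library was Sp100, a component of nuclear bodies, at 114 to 148 FPKM. The summed level of the members was 1028 FPKM in naïve monocytes, 889 in Ym1- and 922 in Ym1+ monocytes after LPS, 833 in naïve neutrophils and 1089 in neutrophils after LPS. The median member was at 18.9 FPKM in naïve monocytes, 13.4 in Ym1- and 15.7 in Ym1+ monocytes, 11.0 in naïve neutrophils and 14.5 in neutrophils after LPS. Both measures were thus highest among monocytes in the naïve library and, among neutrophils, in the library after LPS, and the sum kept that order with TPM and with median-of-ratios scaling. Naïve monocytes held the highest of the 3 monocyte values for 29 of 43 members (67.4%), against 42.1% of the 11267 genes with at least 1 FPKM in any library, and for 30 with TPM scaling (values rescaled to a fixed total) and 27 with median-of-ratios scaling. The members also split by cell type. In 14 members (32.6%) both neutrophil libraries lay above all 3 monocyte libraries, against 17.3% of all genes, and in 21 members (48.8%) all 3 monocyte libraries lay above both neutrophil libraries, against 59.5%. These 2 counts depend on the scaling and were 9 and 24 with TPM, and 22 and 9 with median-of-ratios scaling.

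**Figure D1:**
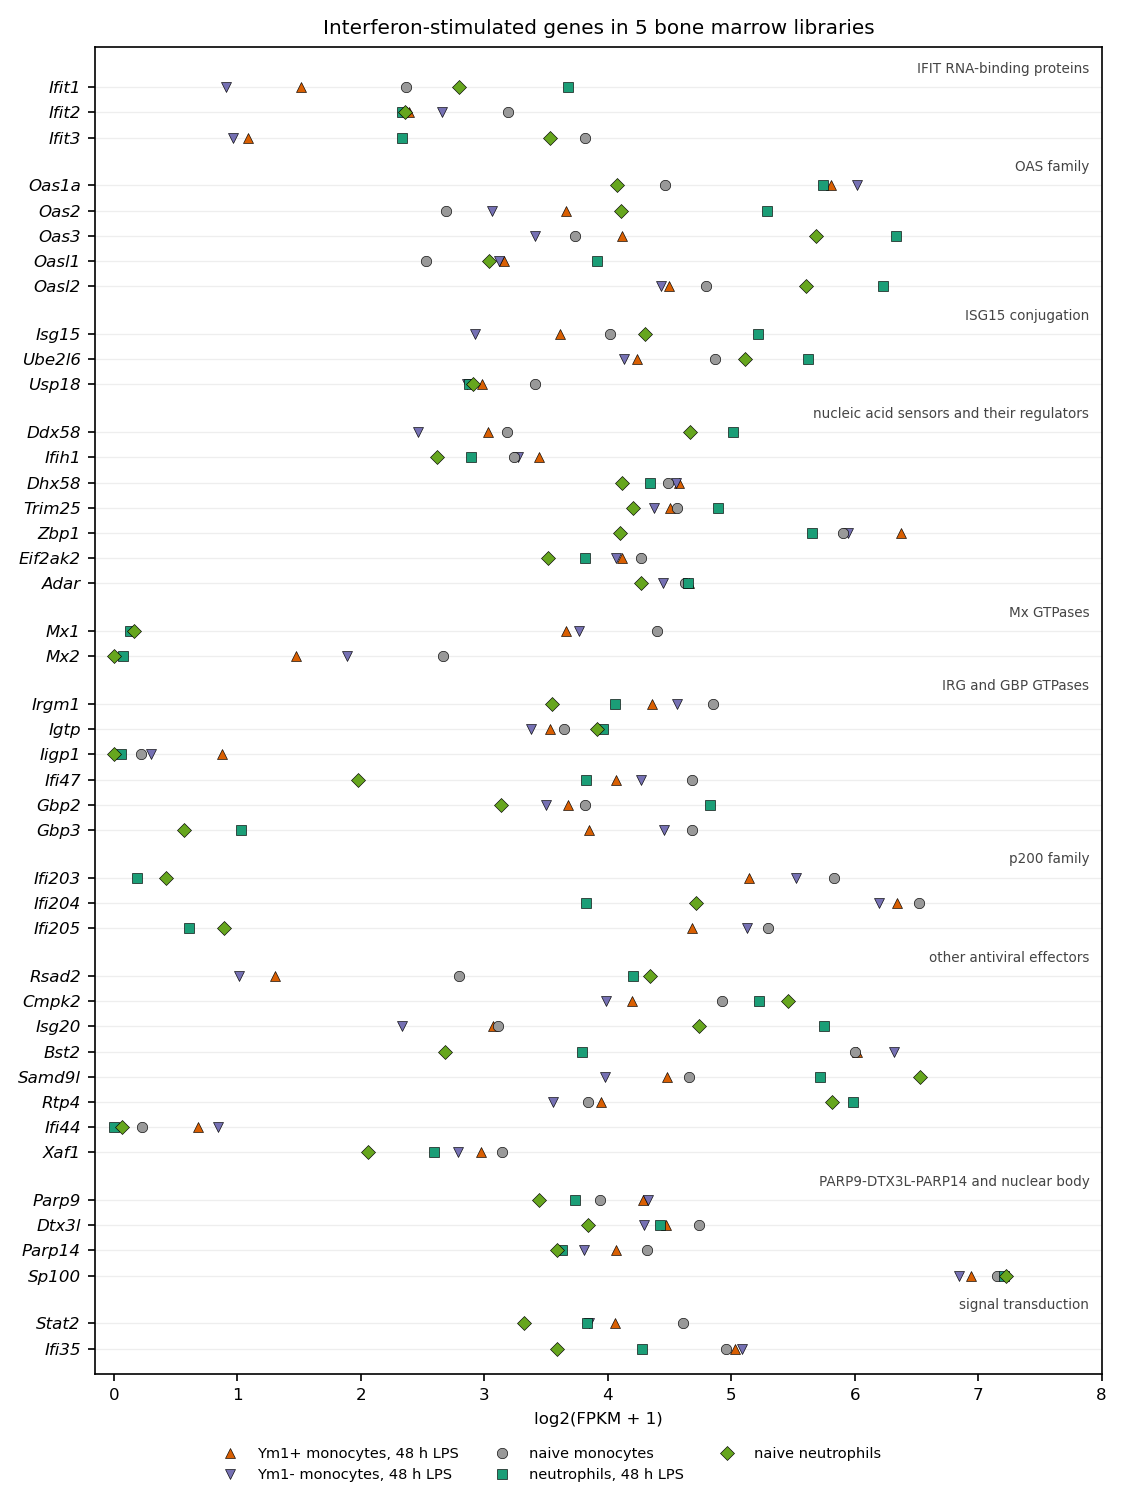
The x axis gives log2(FPKM + 1) and each row 1 of the 43 members, grouped by function, with 1 point per library and no error bars since each condition has 1 library. The naïve monocyte circle is the rightmost of the 3 monocyte points for 29 members. For Mx1, Mx2 and Ifi203 the neutrophil points lie near 0, and for Gbp3 and Ifi205 they lie far left of the monocyte points.

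Of 5 comparisons, 3 asked what LPS changed, 1 asked what set Ym1+ apart from Ym1- monocytes, and 1 set naïve neutrophils against naïve monocytes. In Ym1- monocytes after LPS against naïve monocytes, 4 of the 41 members with at least 1 FPKM in either library were at least 2-fold lower (9.76%, against 4.72% of all genes), namely Ifit3, Rsad2, Ifit1 and Isg15. Oas1a alone was at least 2-fold higher (1 member, 2.44%, against 2.86% of all genes). Most members lay slightly below naïve monocytes, with 32 below 0 and 9 above (22.0% above, against 49.9% of all genes). The median was -0.32 where the median of all 10714 genes was -0.0017. In Ym1+ monocytes after LPS against the same naïve library, 3 members were at least 2-fold lower (7.32%, against 4.51% of all genes), namely Ifit3, Rsad2 and Mx2, and Oas1a was again at least 2-fold higher (2.44%, against 2.59%). The median was -0.18, that of all genes -0.06, with 29 members below 0 and 12 above (29.3% above, against 44.1% of all genes). The 2 comparisons share the naïve monocyte library, so a high or low value in that library moves both. In neutrophils after LPS against naïve neutrophils 7 of 37 expressed members (Mx1, Mx2, Ifi203, Ifi205, Iigp1 and Ifi44 were under 1 FPKM) were at least 2-fold higher (18.9%, against 8.96% of all genes), namely Ifi47, Gbp2, Oas1a, Zbp1, Oas2, Bst2 and Isg20. Ifit3 alone was at least 2-fold lower (1 member, 2.70%, against 5.35%). There 29 members lay above 0 and 8 below (78.4% above, against 54.3% of all genes), and the median was 0.51 where that of all genes was 0.07.

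**Figure D2:**
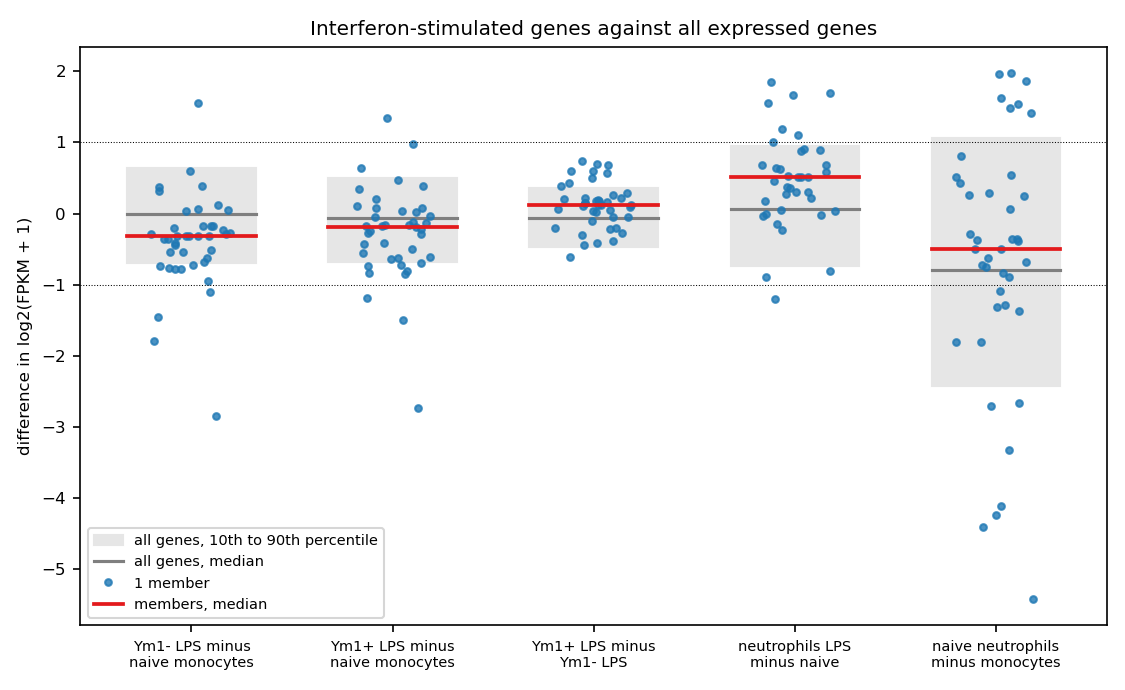
The y axis gives the difference in log2(FPKM + 1) for 5 pairs of libraries, with 1 blue point per expressed member (41, or 37 in neutrophils), a red line at their median, and a grey box and line for the 10th to 90th percentile and the median of all genes. The members' median lies at -0.32, -0.18, 0.13, 0.51 and -0.50 from left to right, and dotted lines mark 2-fold.

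The IFIT genes, whose products bind viral RNA that lacks a host cap, were all lower in monocytes after LPS, and Ifit3 had the lowest difference of any member in both monocyte comparisons. Ifit3 was at 13.1 FPKM in naïve monocytes (95% Poisson interval 11.0 to 15.5), 0.953 in Ym1- monocytes (0.385 to 1.96), 1.13 in Ym1+ monocytes (0.675 to 1.77), 10.6 in naïve neutrophils and 4.05 in neutrophils after LPS. Both libraries after LPS in monocytes lay far below the naïve one, with differences of -2.85 in Ym1- and -2.73 in Ym1+ monocytes, and the neutrophil pair ran the same way at -1.20. The low Ym1- value rests on an estimated 7.07 fragments and the naïve value on 135. Ifit1 was at 4.15 FPKM in naïve monocytes (3.21 to 5.29), 0.878 in Ym1- monocytes (0.420 to 1.62), 1.86 in Ym1+ monocytes, 5.92 in naïve neutrophils and 11.8 in neutrophils after LPS. Its order thus turned between the cell types, with a difference of -1.46 in Ym1- monocytes and 0.89 in neutrophils. For Ifit2 the range was narrower, with 8.16 FPKM in naïve monocytes, 5.31 in Ym1- and 4.23 in Ym1+ monocytes, 4.12 in naïve neutrophils and 4.03 after LPS. Ifit1 and Ifit3 have close relatives in mouse, and how fragments shared with them were counted is not given.

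The OAS enzymes make 2′-5′ oligoadenylate, which activates the ribonuclease RNase L. Of the 5 genes of this class, OAS and OAS-like, 3 stood higher after LPS in Ym1- monocytes, 4 in Ym1+ monocytes and 5 in neutrophils. Of all genes 49.9%, 44.1% and 54.3% did so, and counts over 5 genes show little beside such shares. Oas1a was at 21.01 FPKM in naïve monocytes, 63.9 in Ym1- monocytes, 54.96 in Ym1+ monocytes, 15.9 in naïve neutrophils and 52.5 in neutrophils after LPS. All 3 libraries after LPS lay above both naïve libraries. The differences were 1.56 in Ym1- monocytes, 1.35 in Ym1+ monocytes and 1.67 in neutrophils, and Oas1a was the only member at least 2-fold higher in all 3. Its near-identical relative Oas1g, outside the 43, had 12.8, 40.8 and 40.1 FPKM in naïve, Ym1- and Ym1+ monocytes and 9.48 and 39.5 in naïve neutrophils and those after LPS, and the 2 genes may share fragments. Oas2 was highest in neutrophils after LPS at 38.1 FPKM, with 16.2 in naïve neutrophils, 5.44 in naïve monocytes, 7.36 in Ym1- and 11.7 in Ym1+ monocytes. Oas3 followed the same order of cell types, at 79.5 FPKM in neutrophils after LPS, 50.6 in naïve neutrophils, 12.3 in naïve monocytes and 9.64 and 16.3 in Ym1- and Ym1+ monocytes. The 2 OAS-like genes were also highest in neutrophils after LPS. Oasl1, which limits translation of Irf7, had 4.75 FPKM in naïve monocytes and 7.68 and 7.95 in Ym1- and Ym1+ monocytes, 7.21 in naïve neutrophils and 14.1 after LPS, and Oasl2 had 26.7, 20.6, 21.6, 47.7 and 73.95 FPKM in the same order of libraries. All 5 OAS genes lay above naïve in neutrophils after LPS, with a median difference of 0.88.

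Isg15 encodes a ubiquitin-like protein that is joined to other proteins by the enzyme UBE2L6 and removed by USP18, which also damps the type I receptor. Isg15 was at 15.2 FPKM in naïve monocytes (11.8 to 19.3), 6.58 in Ym1- monocytes (4.08 to 10.04), 11.2 in Ym1+ monocytes (8.91 to 14.0), 18.8 in naïve neutrophils and 36.2 in neutrophils after LPS. The Ym1- library lay below naïve monocytes, at a difference of -1.10 and with no overlap of the intervals, while the Ym1+ interval overlapped both. In neutrophils LPS stood on the other side, at 0.91. Ube2l6 kept the same order at 28.2, 16.5 and 17.8 FPKM in naïve, Ym1- and Ym1+ monocytes and 33.6 and 48.3 FPKM in naïve neutrophils and those after LPS. Usp18 was at 9.61, 6.27 and 6.88 FPKM in naïve, Ym1- and Ym1+ monocytes, and its neutrophil values of 6.51 naïve and 6.33 after LPS were nearly equal.

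Among the sensors of nucleic acids and their regulators, all 7 lay above naïve in neutrophils after LPS, as did 54.3% of all genes. Most monocyte values were close together. Zbp1, a sensor of Z-form nucleic acid that triggers cell death, had the highest difference of these in neutrophils after LPS, at 1.56. It was at 16.2 FPKM in naïve neutrophils and 49.5 after LPS, and at 58.8 in naïve monocytes and 60.7 and 81.98 in Ym1- and Ym1+ monocytes. In FPKM neutrophils after LPS thus came near the monocyte level. Ddx58 (RIG-I), a cytoplasmic sensor of viral RNA ends, was higher in neutrophils, at 24.4 FPKM naïve and 31.4 after LPS, than in monocytes, at 8.09 naïve, 4.51 in Ym1- and 7.16 in Ym1+. Its relative Ifih1 (MDA5), a sensor of long double-stranded RNA, ran the other way in FPKM. It was at 8.44, 8.69 and 9.89 FPKM in naïve, Ym1- and Ym1+ monocytes and 5.13 and 6.44 in naïve neutrophils and those after LPS. A gap of this size between cell types depends on the scaling, so the order of the cell types for Ifih1 is not settled. Dhx58 (LGP2), which regulates both sensors, was nearly level at 21.5, 22.5 and 22.8 FPKM in naïve, Ym1- and Ym1+ monocytes and 16.4 and 19.3 in naïve and LPS neutrophils. Trim25, a ubiquitin ligase for RIG-I, was at 22.5, 19.8 and 21.7 FPKM in naïve, Ym1- and Ym1+ monocytes, 17.4 in naïve neutrophils and 28.7 after LPS. The RNA-dependent kinase Eif2ak2 (PKR), which halts translation, was at 18.2, 15.8, 16.3, 10.5 and 13.1 FPKM in naïve, Ym1- and Ym1+ monocytes, naïve neutrophils and neutrophils after LPS. Adar, which edits double-stranded RNA, was at 23.7, 20.8, 24.2, 18.3 and 24.1 FPKM in those libraries. For Eif2ak2, Adar, Dhx58 and Ifih1 the differences after LPS ran from -0.20 to 0.38 over both cell types.

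The Mx genes, dynamin-like GTPases that trap viral components, were monocyte genes in these data. Mx1 was at 20.05 FPKM in naïve monocytes and 12.6 and 11.6 in Ym1- and Ym1+ monocytes and at 0.118 and 0.0947 in naïve neutrophils and those after LPS. Mx2 was at 5.35 FPKM in naïve (4.22 to 6.69), 2.70 in Ym1- (1.79 to 3.91) and 1.79 in Ym1+ monocytes (1.28 to 2.42), was listed at 0 in naïve neutrophils and was at 0.0532 after LPS. Both genes lay below naïve in monocytes after LPS, with differences in Ym1- and Ym1+ monocytes of -0.63 and -0.74 for Mx1 and of -0.78 and -1.19 for Mx2. C57BL/6 mice carry an Mx1 allele with no functional protein, so the level of its mRNA is not one of active protein.

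The IRG and GBP GTPases, which coat and disrupt vacuoles holding microbes, held the members with the highest LPS differences in neutrophils. Ifi47, an IRG, was at 2.94 FPKM in naïve neutrophils and 13.1 after LPS, the highest difference of any member there at 1.84, and at 24.7 in naïve monocytes and 18.3 and 15.7 in Ym1- and Ym1+ monocytes. Gbp2 was at 7.81 FPKM in naïve neutrophils and 27.4 after LPS, a difference of 1.69, and at 13.1 in naïve monocytes and 10.3 and 11.8 in Ym1- and Ym1+ monocytes. For both genes the neutrophil library after LPS was above the naïve one while both monocyte libraries after LPS were below theirs. Gbp3 was high in monocytes, at 24.7 FPKM in naïve, 20.9 in Ym1- and 13.4 in Ym1+, and near the floor in neutrophils, at 0.484 naïve and 1.04 after LPS. Irgm1, a regulator of the IRG proteins, was at 27.9, 22.6 and 19.5 FPKM in naïve, Ym1- and Ym1+ monocytes, 10.7 in naïve neutrophils and 15.7 after LPS. Igtp (IRGM3) varied little, at 11.5, 9.40, 10.5, 14.1 and 14.5 FPKM in naïve, Ym1- and Ym1+ monocytes, naïve neutrophils and neutrophils after LPS. All 5 expressed GTPases of these families lay below naïve in Ym1- and in Ym1+ monocytes and above naïve in neutrophils after LPS. Of all genes 49.9%, 44.1% and 54.3% lay above naïve in Ym1- monocytes, Ym1+ monocytes and neutrophils. In neutrophils Igtp was nearly level, at a difference of 0.045. The Gbp3 intervals overlapped there, at 0.199 to 0.983 FPKM naïve and 0.557 to 1.78 after LPS. Gbp2 and Gbp3 are close relatives, and fragments shared between them may be split.

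The p200 genes, nuclear and cytoplasmic DNA-binding proteins, were high in monocytes. Ifi203 was at 56.04 FPKM in naïve monocytes and 44.98 and 34.4 in Ym1- and Ym1+ monocytes and at 0.339 and 0.136 in naïve neutrophils and those after LPS. Ifi205 was at 38.3, 33.99 and 24.7 FPKM in naïve, Ym1- and Ym1+ monocytes and at 0.853 and 0.524 in naïve and LPS neutrophils. Ifi204, the member of the family that neutrophils held, was at 90.7, 72.5 and 80.2 FPKM in naïve, Ym1- and Ym1+ monocytes, 25.2 in naïve neutrophils and 13.1 after LPS. All 3 were lower after LPS in each monocyte comparison, with differences of -0.69 to -0.17, and Ifi204 was also lower in neutrophils at -0.89. These genes are near copies of each other, so the split between them is uncertain.

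Of the other antiviral effectors, Rsad2 (viperin), which makes a chain terminator of viral RNA synthesis, was far lower in monocytes after LPS. It was at 5.95 FPKM in naïve monocytes (4.98 to 7.04), 1.01 in Ym1- monocytes (0.584 to 1.64), 1.47 in Ym1+ monocytes (1.10 to 1.92), 19.3 in naïve neutrophils and 17.4 after LPS. The monocyte libraries after LPS did not overlap the naïve one, at -1.79 and -1.49, and both neutrophil libraries were above all of them. Its genomic neighbour Cmpk2, a mitochondrial nucleotide kinase, had the same order at 29.4, 14.8 and 17.4 FPKM in naïve, Ym1- and Ym1+ monocytes, 43.1 in naïve neutrophils and 36.5 after LPS. Isg20, an exonuclease of RNA, was a neutrophil gene at 25.8 FPKM naïve and 52.8 after LPS, against 7.64, 4.04 and 7.42 in naïve, Ym1- and Ym1+ monocytes. Bst2 (tetherin), which holds budding virus at the cell surface, was a monocyte gene at 63.03, 78.7 and 63.9 FPKM in naïve, Ym1- and Ym1+ monocytes, against 5.41 in naïve neutrophils and 12.8 after LPS. Isg20 and Bst2 thus sat at opposite ends of the cell types and were both at least 2-fold higher in neutrophils after LPS, at 1.01 and 1.11. Samd9l, an antiviral restriction factor, was highest in naïve neutrophils at 91.1 FPKM, with 51.6 after LPS and 24.3, 14.8 and 21.3 in naïve, Ym1- and Ym1+ monocytes. Rtp4, a zinc finger protein, was high in both neutrophil libraries at 55.2 FPKM naïve and 62.5 after LPS, against 13.3, 10.8 and 14.4 in naïve, Ym1- and Ym1+ monocytes. Xaf1, which favours apoptosis, was low throughout at 7.84, 5.88, 6.84, 3.16 and 5.02 FPKM in naïve, Ym1- and Ym1+ monocytes, naïve neutrophils and neutrophils after LPS.

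The 6 members of the last 2 classes stood within 2-fold of naïve in every LPS comparison. Parp9 and Dtx3l form a complex that modifies histones and viral proteins, and Parp14 is their ADP-ribosylating relative. Parp9 was at 14.3, 19.1 and 18.5 FPKM in naïve, Ym1- and Ym1+ monocytes, 9.85 in naïve neutrophils and 12.3 after LPS. Dtx3l was at 25.7, 18.6, 21.1, 13.3 and 20.4 FPKM in the same order of libraries, and Parp14 was at 18.9, 12.98, 15.7, 11.03 and 11.3 FPKM. Sp100 was at 141, 114, 122, 148 and 147 FPKM, again in that order. Its FPKM was thus similar in the 2 cell types, a comparison that depends on the scaling. Stat2, the factor that carries the type I signal, was at 23.4 FPKM in naïve monocytes and 13.4 and 15.7 in Ym1- and Ym1+ monocytes, 8.97 in naïve neutrophils and 13.2 after LPS. Ifi35, a binding partner of NMI, was at 30.1, 32.9 and 31.7 FPKM in naïve, Ym1- and Ym1+ monocytes, 11.04 in naïve neutrophils and 18.4 after LPS.

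The monocyte and neutrophil differences after LPS can be set beside each other, since Ym1- monocytes, naïve monocytes and the 2 neutrophil libraries are 4 separate libraries. Of 37 members with a value in both, the neutrophil difference lay above the monocyte difference in 34 (91.9%), against 57.4% of 9074 genes. Higher in neutrophils after LPS and lower in Ym1- monocytes were 20 members (54.1%), against 17.2% of all genes, and 0 members ran the reverse way. A further 9 were higher in both and 8 lower in both. The members that stood apart by at least 1 in opposite directions were 9 (24.3%), against 5.54% of all genes, led by Ifit1, Ifi47, Gbp2 and Isg15. Exceptions to the order were Ifi204, Samd9l and Parp9, whose neutrophil difference lay below the monocyte one. The members with the ISRE letters and those without ran the same way by count. A member without the letters in this window can still have an ISRE, so the split cannot show whether the element matters. In Ym1- monocytes 14 of 17 with the letters lay below 0 with a median of -0.31, as did 12 of 14 without with a median of -0.39, and in neutrophils 13 of 15 with the letters lay above 0 with a median of 0.51, as did 10 of 14 without with a median of 0.56. Ifit1, Isg15 and Gbp2 carry the letters in the sequences shown and ran in opposite directions. Ifit3, Oas1a and Rsad2 carry them too and kept 1 direction in both cell types, Rsad2 at only -0.14 in neutrophils.

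**Figure D3:**
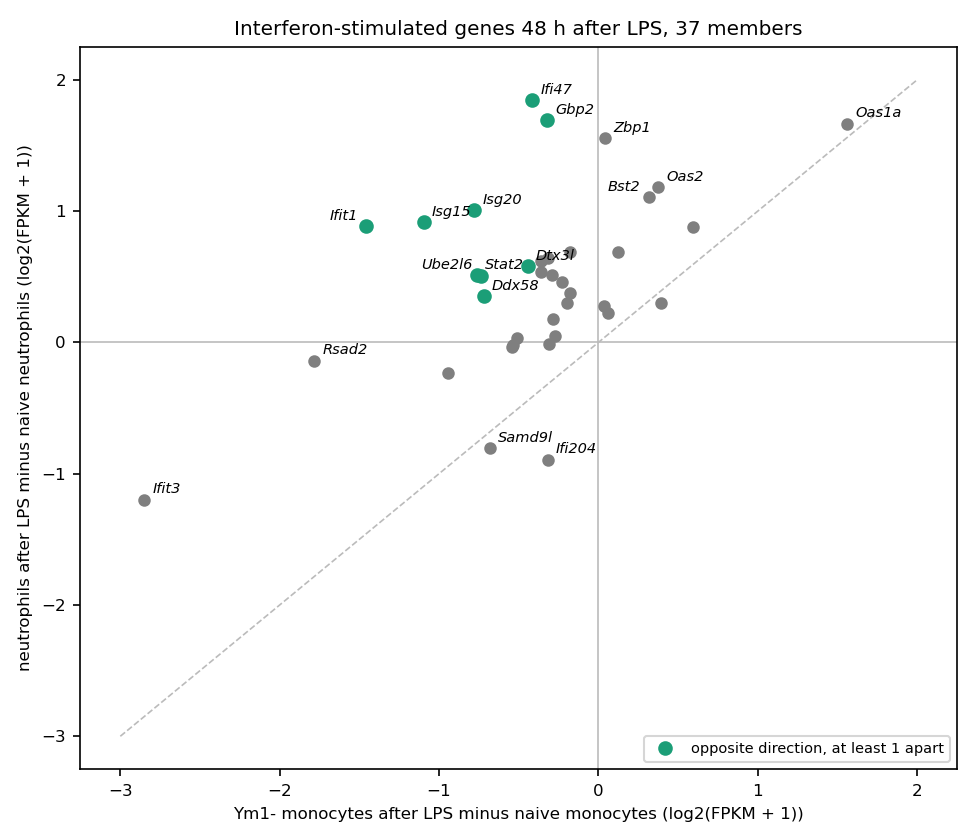
Each point is 1 of 37 members, with the LPS difference in Ym1- monocytes on the x axis and in neutrophils on the y axis, both in log2(FPKM + 1), and the dashed line marks equal differences. All but 3 points lie above that line, and the 9 green points are members with opposite directions at least 1 apart.

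Most members stood slightly higher in Ym1+ than in Ym1- monocytes after LPS, 29 of 41 (70.7%), against 41.9% of all 10489 genes. Counted at 2-fold, 0 members were higher and 0 lower, where 1.38% and 1.18% of all genes were, shares at which so few members would show little. The differences ran from -0.61 for Gbp3 to 0.74 for Isg20, with a median of 0.13 where that of all genes was -0.06. Without the added 1, the FPKM of Ifit1 was 2.11 times as high in Ym1+ as in Ym1- monocytes. The members furthest above Ym1- monocytes were Isg20, Oas3 (0.70), Isg15 (0.69), Ifit1 (0.60), Oas2 (0.60), Ddx58 (0.56) and Samd9l (0.50). Those furthest below were Gbp3, Ifi205 (-0.45), Mx2 (-0.41), Ifi203 (-0.38) and Bst2 (-0.30). Of the first 7, Isg20, Oas3, Oas2, Ddx58 and Samd9l also stood at least 2-fold above naïve monocytes in naïve neutrophils, as did 17.1% of members and 10.8% of all genes. All of the latter 5 were at least 2-fold lower there, as were 31.7% of members and 42.7% of all genes. The next member on each side did not follow this, with Zbp1 (0.43) at -1.80 and Ifit2 (-0.27) at -0.84 in naïve neutrophils against naïve monocytes. Neutrophil marker genes also differed between Ym1+ and Ym1- monocytes. All 10 were higher in Ym1+ than in Ym1- monocytes, 8 of them at least 2-fold, and their summed level was 14052 FPKM in Ym1+ monocytes, 1953 in Ym1- and 1265 in naïve monocytes and 282216 to 293735 in neutrophils. Their part in the differences of the interferon-stimulated genes was not tested.

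Naïve neutrophils and naïve monocytes expressed different members at high levels. Of 41 members 7 were at least 2-fold higher (17.1%, against 10.8% of all genes), namely Rtp4 (1.97), Oas3 (1.96), Samd9l (1.86), Isg20 (1.63), Rsad2 (1.55), Ddx58 (1.48) and Oas2 (1.42). At least 2-fold lower were 13 (31.7%, against 42.7%), led by Ifi203 (-5.41), Ifi205 (-4.41), Mx1 (-4.23), Gbp3 (-4.11), Bst2 (-3.32), Ifi47 (-2.71) and Mx2 (-2.67). The others of these were Ifi204, Zbp1, Ifi35, Irgm1, Stat2 and Xaf1. The median was -0.50 where that of all genes was -0.79, and with median-of-ratios scaling the 2 medians were 0.28 and -0.03, so only values relative to all genes can be read here. Relative to that median the members stood 0.29 higher in FPKM, 0.25 in TPM and 0.31 with median-of-ratios scaling. The 7 higher members kept that call under both scalings, and so did 7 of the 13 lower ones under median-of-ratios scaling.

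Interferon genes themselves were at or near 0. Of 14 type I and III ligands 11 were listed at 0 in all 5 libraries, and the rest were Ifnb1 at 0.269 FPKM and Ifnk at 0.247 in naïve monocytes and Ifnz at 0.0768 or less. The type II ligand Ifng was at 0.152 FPKM in naïve monocytes and listed at 0 elsewhere. A value of 0 in these files can be a failed estimate, as Actr3, a gene of the actin skeleton that all these cells use, was listed at 0 in Ym1+ monocytes and at 593 to 824 FPKM in the other 4 libraries.

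The receptors were expressed in every library, save that of type III interferon. Ifnar1, a chain of the type I receptor, was at 24.6, 22.4 and 23.3 FPKM in naïve, Ym1- and Ym1+ monocytes and 15.6 and 13.8 in naïve and LPS neutrophils, and the other chain Ifnar2 was at 155, 118, 112, 70.9 and 81.97 FPKM in the same order. Ifngr1, the binding chain of the type II receptor, was at 47.9 FPKM in naïve neutrophils and 134 after LPS, a difference of 1.46, and at 199 in naïve monocytes and 122 and 146 in Ym1- and Ym1+ monocytes. It was the only receptor at least 2-fold apart in any LPS comparison, 1 of 6 in neutrophils, where 8.96% of all genes were at least 2-fold higher. Ifngr2 was at 88.5 to 106 FPKM in monocytes and 78.3 to 92.1 in neutrophils. Il28ra, the specific chain of the type III receptor, was at 39.5 FPKM in naïve neutrophils and 20.6 after LPS and at most 0.652 in monocytes, while its partner Il10rb was at 32.2 to 51.7 FPKM in all 5 libraries.

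None of the 4 other signalling genes, Jak1, Jak2, Tyk2 and Irf9, was 2-fold apart in any LPS comparison. Jak1 was at 52.01 to 59.2 FPKM in monocytes and 86.9 to 109 in neutrophils, Jak2 at 19.2 to 25.2 in all 5 libraries, and Tyk2 at 41.8 to 48.6 in monocytes and 8.56 to 14.1 in neutrophils. Irf9, a partner of Stat2, was lower after LPS in each cell type, at 50.7, 33.7 and 36.3 FPKM in naïve, Ym1- and Ym1+ monocytes and 41.4 and 34.99 in naïve and LPS neutrophils. Of 13 genes that induce interferon, the STING gene Tmem173 was at least 2-fold higher in neutrophils after LPS (2.34 FPKM naïve, 8.78 after LPS), as was Ikbke, and the adaptor Myd88 was at least 2-fold higher in both monocyte libraries (59.9 FPKM naïve, 126 in Ym1-, 131 in Ym1+). Tlr9 and Tlr7, which sense nucleic acids in endosomes, were at least 2-fold lower in Ym1- monocytes, Tlr9 at 29.8 FPKM in naïve monocytes and 13.1 and 14.6 in Ym1- and Ym1+ monocytes. Of 6 negative regulators, Socs3, a feedback inhibitor of cytokine receptors, was at least 2-fold higher in all 3 LPS libraries, at 0.905 FPKM in naïve monocytes and 13.5 and 16.1 in Ym1- and Ym1+ monocytes and 8.10 in naïve neutrophils and 48.9 after LPS. Of all genes 8.96% were at least 2-fold higher in neutrophils after LPS, 2.86% in Ym1- and 2.59% in Ym1+ monocytes. At least 2-fold lower in Ym1- monocytes were 4.72%. In lists this short, few calls or none show little about the pathway as a whole.

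**Figure D4:**
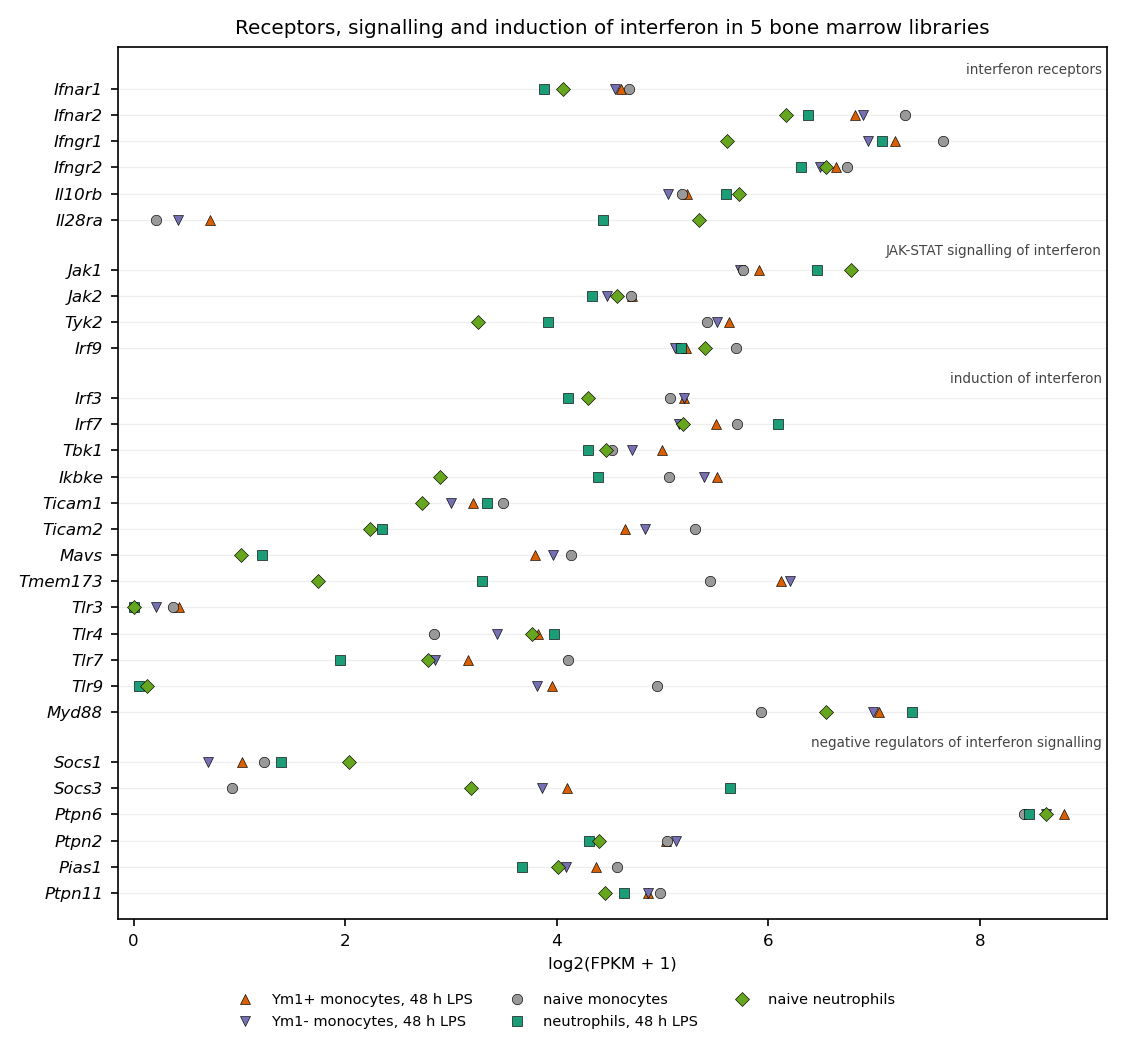
The x axis gives log2(FPKM + 1) and each row 1 gene of the interferon receptors, the JAK-STAT signal, the induction of interferon or its negative regulation, with 1 point per library and no error bars. Il28ra points lie near 0 in the 3 monocyte libraries and far right in both neutrophil libraries, and Socs3 is lowest in naïve monocytes.

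A further 50 interferon-stimulated genes outside the 43 were found of 57 listed. In neutrophils after LPS 9 of 40 expressed were at least 2-fold higher and 0 lower (8.96% and 5.35% of all genes), with a median of 0.41 (0.07 over all genes). In Ym1- monocytes 3 of 47 were higher and 4 lower (2.86% and 4.72% of all genes), with a median of 0.0037 (-0.0017 over all genes). In Ym1+ monocytes 4 of 48 were higher and 3 lower (2.59% and 4.51% of all genes), with a median of 0.014 (-0.06 over all genes). The lower median of the 43 members in monocytes was thus not seen in this list. The IFITM genes, which block fusion of virus with membranes, held the highest values of these in neutrophils. Ifitm1 was at 160.3 FPKM in naïve neutrophils and 2433 after LPS, and at 25.8, 103 and 74.7 in naïve, Ym1- and Ym1+ monocytes, so the LPS libraries were higher in both cell types. Ifitm2 and Ifitm3 were at 579.9 and 466 FPKM in naïve neutrophils and 2447 and 1564 after LPS, and their differences after LPS in monocytes ran from -0.28 to 0.08. Ifitm6 was at 2644 FPKM in naïve neutrophils and 9374 after LPS, against 391, 150.2 and 302 in naïve, Ym1- and Ym1+ monocytes. Ly6e, a surface protein that limits viral entry, was at 54.04 FPKM in naïve neutrophils and 255 after LPS and at 1027 to 1109 in monocytes. In monocytes the chemokine gene Cxcl10 was at 10.2 FPKM in naïve, 2.86 in Ym1- and 4.79 in Ym1+, and Slfn5, a Schlafen gene, at 46.1, 16.9 and 19.96, both lower after LPS. Parp12, an ADP-ribosylating enzyme, was higher, at 13.1, 32.3 and 35.8 FPKM, and Slfn4, another Schlafen gene, was at 8.66, 10.8 and 22.3 FPKM.

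Markers of other cells moved with the monocyte comparisons. The summed level of the 5 conventional dendritic cell markers was 44.5 FPKM in naïve monocytes, 11.8 in Ym1- and 1.99 in Ym1+ monocytes, and at most 1.23 in neutrophils. Of these Cd209a was at 12.7 FPKM in naïve monocytes, listed at 0 in Ym1- and at 0.0746 in Ym1+ monocytes. The 5 markers of Ly6Clow monocytes summed to 66.8 FPKM in naïve monocytes and to 18.6 and 24.2 in Ym1- and Ym1+ monocytes, with Ace at 20.96, 0.455 and 0.609 FPKM. Their sum was 23.6 FPKM in naïve neutrophils and 6.33 after LPS. Markers of plasmacytoid dendritic cells, major producers of type I interferon, summed to 7.27 FPKM or less in all 5 libraries, of which Tcf4 made up most, with Siglech at most 0.195 and Klk1 listed at 0 in all. Macrophage markers summed to 3.49 FPKM in naïve monocytes and to 26.6 and 74.8 in Ym1- and Ym1+ monocytes. In neutrophils they ran the other way, at 26.8 FPKM naïve and 8.84 after LPS. Eosinophil markers summed to 30.2 FPKM in Ym1- monocytes and at most 3.97 elsewhere. Markers of B cells, of T and NK cells and of erythroid cells summed to at most 15.6, 23.3 and 25.1 FPKM in any library. The T and NK cell sum was 8.79 FPKM in naïve neutrophils and 23.3 after LPS. The myeloid precursor gene Mpo was at 910.3, 385 and 282 FPKM in naïve, Ym1- and Ym1+ monocytes and at 9.77 and 119 in naïve neutrophils and those after LPS. Elane, another gene of such precursors, ran the same way, at 609, 268 and 312 FPKM in those monocytes and 13.7 and 173 in those neutrophils. Prtn3, also a precursor gene, was higher after LPS in monocytes, at 628, 801 and 675 FPKM, and in neutrophils, at 11.5 and 326. The part of these cells in the lower monocyte values and the higher neutrophil values after LPS was not tested.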

How the data were processed

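RNA-seq of sorted BM monocytes and neutrophils gave 5 libraries, made per the labels with a strand-specific kit. For each library the authors deposited FPKM for 23234 symbols, that is, fragments corrected for length of the transcript and for sequencing depth. TopHat2 2.0.8, Cufflinks 2.1.1 and mm9 are named in the submitters' processing notes. Options and annotation were not given in the sources used here. Groups were taken from the labels. Within each of 5 library pairs, the log2(FPKM + 1) values were subtracted for every gene that reached 1 FPKM in 1 library or both, using Python 3.11.15, numpy 2.4.6, pandas 2.3.3 and scipy 1.17.1, and the steps were tested on simulated data. A difference of 1 or more was counted as at least 2-fold. Fragments were estimated from the steps between low values and GENCODE transcript lengths. The members, the other lists and the rule for naming genes were chosen with earlier results of these data known. Every member is named, with FPKM in all 5 libraries where it reached 5 FPKM in any. Of other interferon-stimulated genes, up to 6 with the largest difference per LPS comparison and at least 10 FPKM are named. Alternatives were a pseudocount of 0.1, a minimum of 5 FPKM or none, TPM, median-of-ratios scaling and a 4-fold threshold. Those for the monocyte and neutrophil differences set beside each other were added after the data were seen.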

Additional observations from a re-analysis of the deposited data

Results flagged for a closer look

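For 9 members the pair of neutrophil libraries and the pair of Ym1- and naïve monocyte libraries ran in opposite directions after LPS, with the 2 differences at least 1 apart on the log2(FPKM + 1) scale. Each direction rests on 1 library per condition, and the difference between them was not tested. The neutrophil difference exceeded the monocyte difference by 2.34 for Ifit1, an RNA-binding protein, by 2.26 for Ifi47, an immunity-related GTPase, by 2.01 for Gbp2, a guanylate-binding protein, and by 2.01 for Isg15, the ubiquitin-like modifier. It exceeded the monocyte difference by 1.78 for Isg20, an exonuclease, by 1.27 for Stat2, by 1.25 for Ube2l6, the enzyme that conjugates ISG15, by 1.07 for Ddx58 and by 1.02 for Dtx3l. The monocyte values of Ifit1 after LPS rest on few fragments, an estimated 9.92 in Ym1- monocytes. Isg20 rests on an estimated 14.5 there, and its interval of 2.24 to 6.71 FPKM overlaps the naïve one of 5.41 to 10.5. In Ym1+ monocytes against naïve, Isg20, Ddx58 and Dtx3l stood closer to naïve than in Ym1-, at -0.04, -0.16 and -0.27. Of the members listed here, only Ifi47 stood further from naïve in Ym1+ monocytes (-0.62) than in Ym1- monocytes (-0.42).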

How the results depend on the processing

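No paired analysis was possible because each condition has 1 library, and for the same reason no library could be left out. The median of the members kept its sign in all 5 comparisons under each alternative, except in naïve neutrophils against naïve monocytes, where it was 0.28 with median-of-ratios scaling, which also gave 14 members higher and 7 lower as the shares of all genes moved from 10.8% to 22.3% higher and from 42.7% to 24.2% lower. With TPM that median was -0.90. A threshold of 4-fold left 0 higher and 1 lower in Ym1- monocytes after LPS, 0 and 1 in Ym1+ monocytes, 0 and 0 in neutrophils, and 0 and 7 between naïve neutrophils and naïve monocytes, as a stricter threshold must lower counts. With a pseudocount of 0.1, 2 members were higher in Ym1+ than naïve monocytes (Oas1a and Oas2) and 1 was higher in Ym1+ than Ym1- monocytes (Ifit1). With median-of-ratios scaling 2 were again higher in Ym1+ than naïve monocytes. With TPM 2 members were lower in neutrophils after LPS (Ifit3 and Ifi204), and 6 of the 7 higher ones kept that call. The summed member level was 1669.8, 1566, 1915, 1404 and 1171 in TPM and 757, 699, 795, 1508 and 1156 with median-of-ratios scaling, for Ym1+, Ym1- and naïve monocytes and for neutrophils after LPS and naïve, so the order of the cell types depends on the scaling. The number of members that ran in opposite directions and at least 1 apart was 8 to 12 over the alternatives. The cause of these shifts was not tested. Depth limits the low values most, since Ym1- monocytes had 44.8% of the depth of Ym1+ monocytes.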
